A study of Mus musculus with 16 samples.

Results

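miR-139 is a microRNA encoded by a single mouse hairpin, and the deposited table of mature microRNAs holds both of its arms, mmu-miR-139-5p and mmu-miR-139-3p (miR-139-5p and miR-139-3p below), as 2 of 1915 entries. The rows were found by name. They were chosen by their counts in an earlier analysis of the same libraries, selected on a difference between the groups in the 3p arm only, so every difference between the groups given below for either arm, or for their ratio, is a description and carries no test. Small RNA was counted in extracellular vesicles (EVs), membrane particles that cells release, from the bone marrow plasma of 6-month-old C57BL/6N mice. All mice carried the CAGS-Snorkel reporter, and EVs were captured with an antibody to the HA tag. In 6 of the mice (3 male and 3 female, called Ocn) the Cre driver was Ocn-Cre, which the osteocalcin promoter switches on in mature bone-forming cells. In the other 10 (5 male and 5 female, called Prx1) it was Prx1-Cre, which acts in limb bud mesenchyme and so marks all cells derived from it, bone-forming cells included. Libraries are as many as the mice, but the labels tie none to an animal or a sex, so the spread given here is that between libraries.

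A microRNA hairpin is cut by Dicer into a duplex of a 5p and a 3p strand, and usually one strand is kept in the Argonaute complex while the other is degraded. The retained strand finds its target messenger RNAs mainly through its seed, the bases 2 to 8. For miR-139 the 5p strand is the one most studied, as a growth-restraining microRNA with reported targets such as Igf1r, the receptor of insulin-like growth factor 1, and Notch1, a receptor of cell fate decisions. The host gene of the hairpin, Pde2a, encodes a phosphodiesterase that breaks down cyclic nucleotides.

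The hairpin and both mature strands are shown because the results turn on how the arms of one precursor compare. In the hairpin, read 5′ to 3′ from RefSeq (GRCm38.p6), capitals mark the mature arms, and in the mature strands they mark the seed.
Mir139 hairpin: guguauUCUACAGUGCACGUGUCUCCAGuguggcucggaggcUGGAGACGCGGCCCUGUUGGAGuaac
miR-139-5p: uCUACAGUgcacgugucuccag
miR-139-3p: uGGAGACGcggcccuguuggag

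Mir139 (ENSMUSG00000065446.1) lies on the plus strand of chromosome 7 at chr7:101475376-101475443 of GRCm38, the assembly of the mm10 build that the submitters' notes name. The 5p strand spans 101475382 to 101475403 and the 3p strand 101475418 to 101475439. The hairpin lies inside Pde2a (ENSMUSG00000110195.1, 101421691 to 101512827, plus strand), in an intron of each of the 10 GENCODE transcripts that span it. The nearest other annotated microRNA gene is 405741 bases away, so the hairpin is not part of a tight cluster. Folded with RNAfold, the 68 bases formed 25 pairs at a minimum free energy of -35.6 kcal/mol, with 20 of 22 bases paired in each arm. The longest run in which the arms are exact reverse complements covers bases 15 to 21 of the 5p strand and bases 1 to 7 of the 3p strand, in capitals here.
miR-139-5p: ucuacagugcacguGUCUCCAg
miR-139-3p: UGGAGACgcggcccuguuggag

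The arms differ in base composition. miR-139-5p has 54.55% G and C and miR-139-3p 68.18%, above 97.1% of the 204 tested microRNAs with a RefSeq sequence, whose median is 47.6%. The seeds differ as well, CUACAGU in the 5p strand and GGAGACG in the 3p strand. Of 1679 mouse mature sequences, 0 others shared the bases 2 to 8 of either strand. One other, miR-6397, shared bases 2 to 7 of miR-139-3p, and it had 0 counts in every library.

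Library totals were 582660 to 1536421 counts in Ocn, against 225273 to 813770 counts in Prx1, so depth differed with the group. Even the closest of 60 within-group pairs of libraries differed beyond sampling noise (chi-square 5.04 per degree of freedom). Among markers of cell types, summed levels overlapped between the groups in each of the 8 lists. Overlap says little by itself, since only 9 of the 234 tested microRNAs (3.85%) had groups that did not overlap. The sums also weigh the most abundant members most. Myeloid and pan-leukocyte microRNAs summed to 39360 to 94638 CPM (counts scaled to a library total of 1000000) in Ocn and 42431 to 69316 CPM in Prx1. Erythroid ones summed to 23947 to 43670 CPM in Ocn, against 31873 to 47291 CPM in Prx1, and endothelial ones to 16712 to 20837 CPM in Ocn, against 12913 to 19289 CPM in Prx1. Skeletal muscle markers summed to 46727 to 77413 CPM in Ocn, against 39885 to 70774 CPM in Prx1, lymphoid ones to 3347 to 5048 CPM in Ocn, against 3149 to 4871 CPM in Prx1, and the 5 mesenchymal markers to 31426 to 43032 CPM in Ocn, against 26518 to 34989 CPM in Prx1. Neural markers summed to 584 to 773 CPM in Ocn, against 599 to 884 CPM in Prx1 with miR-124-3p at 0 throughout, and liver markers to 4.40 to 23.5 CPM in Ocn, against 0 to 1644 CPM in Prx1 with miR-122-3p at 0 throughout. Single members of these lists did pass the edgeR test (adjusted p under 0.05). Of the 24 marker microRNAs tested, 2 were higher in Ocn, where 5.98% of all 234 tested microRNAs passed higher and 7.69% lower. These 2 were the lymphoid miR-181a-5p (log2 fold change 0.61, SE 0.11) and the mesenchymal miR-199a-5p (0.43, SE 0.13). Another 5 were lower in Ocn, the lymphoid miR-150-5p (-1.05, SE 0.20), the muscle miR-133a-3p (-0.68, SE 0.16) and miR-133b-3p (-0.96, SE 0.24), and the erythroid miR-486a-5p and miR-486b-5p (-0.38, SE 0.13 for each). The remaining erythroid markers leaned higher in Ocn without passing, namely miR-144-3p (0.58, SE 0.20), miR-451a (0.22, SE 0.18) and miR-144-5p (0.17, SE 0.17). Of the remaining muscle markers, which did not pass either, miR-1a-3p leaned higher (0.34, SE 0.17) and miR-206-3p lower (-0.29, SE 0.24). The part of these markers in the levels of miR-139 was not tested. In bulk EVs, fewer vesicles of a kind and fewer copies per vesicle cannot be told apart, and libraries from mice without Cre were not analysed here.

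miR-139-3p had between 71 and 228 counts per library in Ocn, against between 37 and 185 counts in Prx1. As a share of the library it ran from 119.8 to 202.7 CPM in Ocn, with a median of 155.6, and from 164 to 372 CPM in Prx1, with a median of 258.8. All 6 Ocn libraries lay below the Prx1 median, and 9 of 10 Prx1 libraries lay above the highest Ocn library. The groups overlapped only through Prx1 4 (of all 234 tested microRNAs, 9 or 3.85% had groups that did not overlap). Prx1 4 was the shallowest library and had 164 CPM from 37 counts (95% exact Poisson interval 116 to 226 CPM, counting error only). The lowest Ocn libraries were Ocn 5 (119.8 CPM) and Ocn 3 (122 CPM), and the highest Prx1 libraries were Prx1 1 (372 CPM), Prx1 7 (356 CPM) and Prx1 2 (345 CPM).

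Means were 159 ± 38.0 CPM in Ocn (SD, n = 6), against 272 ± 72.5 CPM in Prx1 (SD, n = 10). The edgeR fit gave a log2 fold change of -0.80 (SE 0.19) for Ocn over Prx1, or 0.574-fold. This arm is one of the 18 microRNAs that fell past the threshold in Ocn (edgeR's quasi-likelihood test with Benjamini-Hochberg adjustment at 0.05), which are 7.69% of the 234 tested. Since that contrast picked the arm, nothing is read from its place there. With each library's trend on GC content removed, the log2 fold change was -0.61 (SE 0.15).

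miR-139-5p, the arm with most of the published targets, did not separate the groups. It had between 84 and 356 counts per library in Ocn, against between 30 and 106 counts in Prx1. In CPM it ran from 144 to 231.7 in Ocn, with a median of 200.8, and from 106.6 to 391 in Prx1, with a median of 165. The Prx1 libraries reached past Ocn on both sides, with 4 of 10 below the lowest Ocn library, 4 within the Ocn range and 2 above the highest. The highest of all was Prx1 4 at 391 CPM (95% exact Poisson interval 313 to 481 CPM, counting error only), the library in which miR-139-3p was lowest among Prx1.

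Mean levels of miR-139-5p were 195 ± 38.3 CPM in Ocn (SD, n = 6), against 188 ± 89.2 CPM in Prx1 (SD, n = 10). Its log2 fold change for Ocn over Prx1 was 0.04 (SE 0.23), and 0.21 (SE 0.20) without Prx1 4. With all libraries the difference was smaller than its SE, so neither direction can be given. In Prx1 the coefficient of variation was 47.5% for miR-139-5p and 26.7% for miR-139-3p, while counting alone gives a median of 11.3% for the 5p arm and 9.50% for the 3p arm. In Ocn it was 19.7% for miR-139-5p and 23.8% for miR-139-3p, with counting errors of 7.83% and 8.62%. The biological coefficient of variation in the edgeR fit was 0.304 for the 5p arm, above that of 87.2% of tested microRNAs, and 0.249 for the 3p arm, above that of 67.9%.

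**Figure D1:**
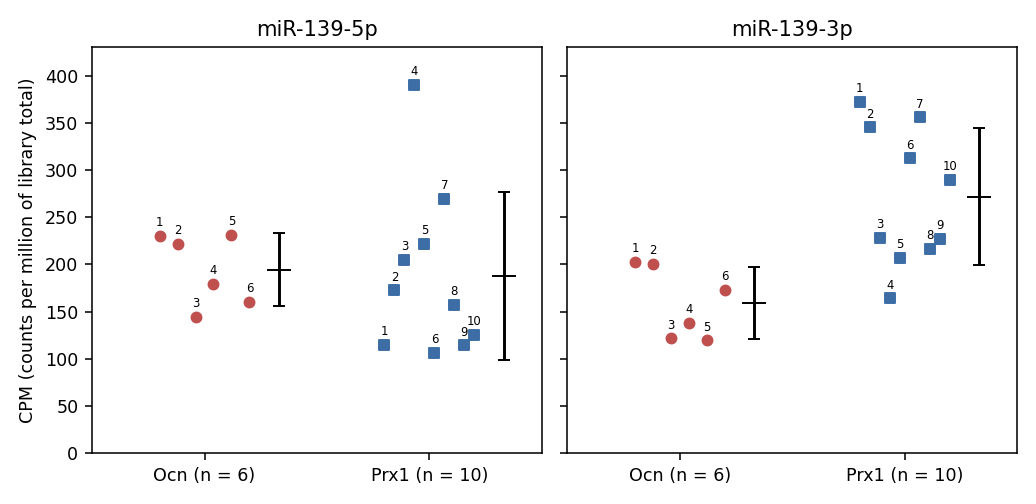
Level of miR-139-5p (left) and miR-139-3p (right) in each library, in CPM of the library total. Points are libraries with their replicate number, and bars are the mean and SD of 6 Ocn and 10 Prx1 libraries. For the 3p arm 9 of 10 Prx1 squares sit above every Ocn circle, while for the 5p arm the Prx1 squares reach both below and above the Ocn circles.

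Both arms ranked in the upper part of the detected microRNAs. By mean CPM, miR-139-5p ranked 114th of 872 detected microRNAs in Ocn and 120th of 811 in Prx1. miR-139-3p ranked 123rd in Ocn and 106th in Prx1, so the order of the arms was opposite in the groups. In Ocn the neighbours of miR-139-5p were miR-379-5p (195 ± 21.0 CPM) just above and miR-192-5p (191 ± 55.9 CPM) just below. In Prx1 they were miR-192-5p (192 ± 56.5 CPM) above and miR-181d-5p (178 ± 37.8 CPM) below. The neighbours of miR-139-3p were miR-18a-5p (166 ± 34.4 CPM) and miR-203-3p (146 ± 33.7 CPM) in Ocn, and miR-25-5p (279 ± 122 CPM) and miR-501-3p (271 ± 66.2 CPM) in Prx1. Each of these lay within 1 SD of the arm it stood beside, so the places hold only to within the spread. Together the arms summed to 354 ± 63.9 CPM in Ocn, against 460 ± 86.4 CPM in Prx1.

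The ratio of the arms can be read within a library, where the library total and its scaling divide out. Any other effect of depth on the ratio was not tested. The 5p arm made up 55.1% ± 6.0 of the counts of both arms in Ocn (SD, n = 6), against 40.1% ± 14.1 in Prx1 (SD, n = 10). It outnumbered the 3p arm in 5 of 6 Ocn libraries and in 2 of 10 Prx1 libraries. Ocn libraries ran from 48.0% in Ocn 6 to 65.9% in Ocn 5. Prx1 libraries ran from 23.5% in Prx1 1 to 70.4% in Prx1 4, with a median of 37.8%. The exceptions in Prx1 were Prx1 4 and Prx1 5, at 70.4% and 51.7%.

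On the log2 scale the 5p to 3p ratio averaged 0.30 ± 0.36 in Ocn and -0.61 ± 0.87 in Prx1, a difference of 0.90 (SE 0.35). Averaged over both groups with equal weight, a level that the choice of the arm did not use, the ratio was -0.15 (2-sided exact sign-flip permutation test over 16 libraries, p = 0.417), with the 5p arm higher in 7 of 16. Neither arm was therefore shown to be the more abundant across the study. Levels of unlike sequences also depend on how well each one ligates to the adaptors, and this was not measured here.

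**Figure D2:**
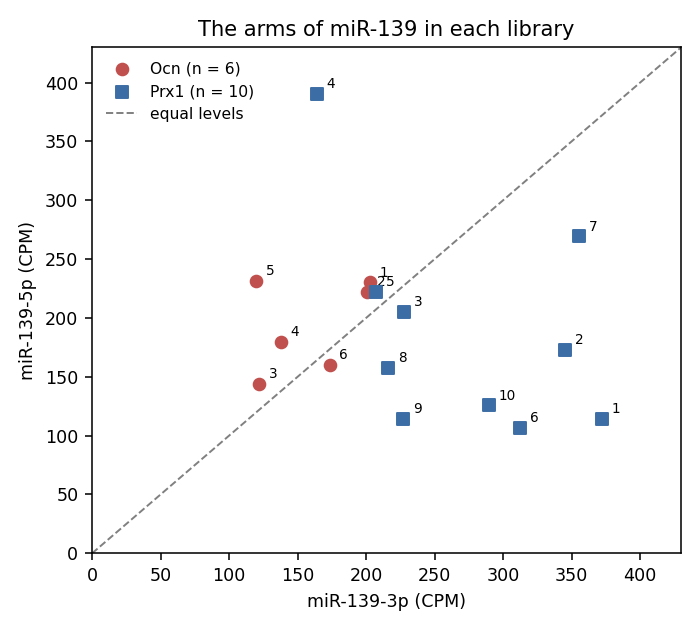
miR-139-5p (vertical axis) against miR-139-3p (horizontal axis) in each library, both in CPM of the library total, with replicate numbers beside the points and a dashed line of equal levels. Of the Ocn circles 5 of 6 lie above the line, and of the Prx1 squares 8 of 10 lie below it, while Prx1 4 stands at the upper left with 391 CPM of the 5p and 164 CPM of the 3p arm.

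Within a group the arms did not rise and fall together in a way that passed a test. Across the 6 Ocn libraries, log2 levels of the 5p and 3p arms had a Pearson r of 0.49 (exact permutation p = 0.322, adjusted p = 0.483) and a Spearman rho of 0.54 (exact permutation p = 0.297, adjusted p = 0.892). Across the 10 Prx1 libraries, r was -0.47 (permutation p = 0.171, adjusted p = 0.483) and rho -0.43 (permutation p = 0.217, adjusted p = 0.892). Adjustment was over 6 relations, these and those with depth below. Without the 2 libraries farthest from the median of the 5p arm, r was 0.51 in Ocn and -0.52 in Prx1, and without Prx1 4 alone it was -0.11 in Prx1. The value in Ocn also hung on single libraries, at 0.009 without Ocn 3 and 0.85 without Ocn 5. For scale, 14 of 44 hairpins with both arms tested had a negative r in Prx1, where the median was 0.15, and that of miR-139 was the fifth lowest. In Ocn the median was 0.26.

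Depth moved with the group, and its part in the difference between the groups was not tested. Within groups, miR-139-3p had an r with the log10 library total of -0.25 in Ocn (exact permutation p = 0.597, adjusted p = 0.717) and -0.08 in Prx1 (permutation p = 0.825, adjusted p = 0.825), with rho of -0.09 in Ocn and -0.08 in Prx1 (permutation p = 0.919 and 0.839). For miR-139-5p, r was 0.55 in Ocn (exact permutation p = 0.272, adjusted p = 0.483) and -0.40 in Prx1 (permutation p = 0.255, adjusted p = 0.483), with rho of 0.37 in Ocn and -0.12 in Prx1 (permutation p = 0.497 and 0.760). Each Spearman adjusted p for depth was 0.919. Without the 2 libraries of most extreme depth, r was -0.36 in Ocn and 0.42 in Prx1 for the 3p arm, and 0.19 in Ocn and -0.22 in Prx1 for the 5p arm. Only 3 Ocn and 2 Prx1 libraries had totals in the range that both groups share. In these, miR-139-3p had 203, 122 and 173 CPM in Ocn 1, Ocn 3 and Ocn 6, against 216 and 227 CPM in Prx1 8 and Prx1 9, a log2 fold change of -0.46 (SE 0.29) from 5 libraries. miR-139-5p had 230.2, 144 and 160 CPM in the same Ocn libraries, against 158 and 114 CPM in the Prx1 libraries, and 5p shares were 53.2%, 54.2% and 48.0% against 42.1% and 33.5%. With the log10 total of each library as a further term over all 16, the log2 fold change was -0.60 (SE 0.30) for the 3p arm and 0.35 (SE 0.37) for the 5p arm. In that fit 0 of the 234 microRNAs passed in edgeR, with 40 at an unadjusted p under 0.05, so no microRNA called without the depth term kept its call.

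**Figure D3:**
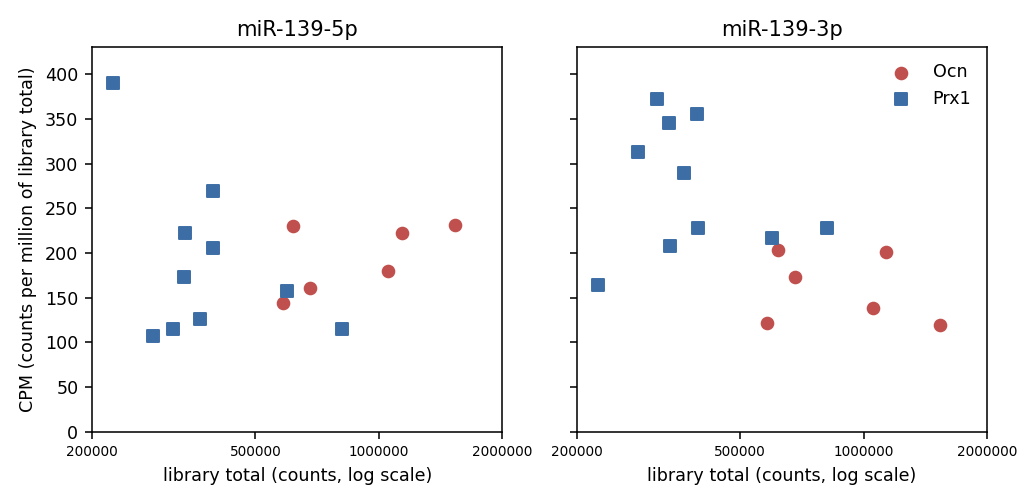
Level of miR-139-5p (left) and miR-139-3p (right), in CPM of the library total, against the library total on a log scale. Most Prx1 squares lie at lower totals than the Ocn circles, and in the range both groups share, 3 Ocn and 2 Prx1 libraries, the 3p squares at 216 and 227 CPM lie above the circles at 122 to 203 CPM.

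The GC content of the counts, weighted over the microRNAs with a sequence, ran from 40.8% to 41.3% in Ocn and from 40.9% to 41.5% in Prx1, so libraries hardly differed in it. In 4 further relations, added after the data were seen, r with this content was -0.13 for miR-139-5p and -0.09 for miR-139-3p in Ocn (exact permutation p = 0.849 and 0.861), and -0.53 for miR-139-5p and -0.36 for miR-139-3p in Prx1 (permutation p = 0.118 and 0.309). Spearman rho was 0.31 for either arm in Ocn (exact permutation p = 0.564), and -0.53 for miR-139-5p and -0.31 for miR-139-3p in Prx1 (permutation p = 0.122 and 0.388). None had an adjusted p under 0.473. In Ocn the low r of the 5p arm rests on 2 libraries, since r was 0.996 in the 4 left without Ocn 2 and Ocn 3. In Prx1 r was -0.51 for the 5p and -0.06 for the 3p arm without Prx1 7 and Prx1 8.

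A 3p arm called lower in Ocn beside a 5p arm that was not called was seen in 5 of the 44 hairpins with both arms tested, or 11.4%. miR-139 is one by its choice. The others are miR-18a of the Mir17 cluster, miR-574, the muscle microRNA miR-133a and miR-532. Their 3p arms had log2 fold changes for Ocn over Prx1 of -0.96 (SE 0.18) for miR-18a, -0.97 (SE 0.16) for miR-574, -0.68 (SE 0.16) for miR-133a and -0.89 (SE 0.28) for miR-532, and their 5p arms had 0.50 (SE 0.18), 0.12 (SE 0.16), 0.77 (SE 0.30) and -0.10 (SE 0.15). Among the 3p arms with a RefSeq sequence, GC content was 54.55% in miR-18a-3p, 59.1% in miR-574-3p, 63.6% in miR-532-3p and 68.18% in miR-139-3p. The mirror case, a lower 5p arm beside a 3p arm that was not called, was seen in 1 hairpin, the erythroid miR-486a, named after its values were seen. Its arms had nearly equal log2 fold changes, -0.38 (SE 0.13) for the 5p and -0.39 (SE 0.21) for the 3p arm.

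That an arm passed and its partner did not does not show that the arms differ. Tested as a 5p to 3p ratio with limma over the 44 hairpins, 3 passed, or 6.82%, all higher in Ocn: miR-18a (1.47, SE 0.28), miR-574 (1.10, SE 0.21) and miR-133a (1.39, SE 0.35, adjusted p = 0.0123, against 0.00110 for the other two). The ratio difference of miR-139, 0.90, was the sixth in size and is given without a test, against a median size of 0.34 over all 44. Without Prx1 4, the Prx1 library with the highest 5p share, it was 1.11 (SE 0.27).

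**Figure D4:**
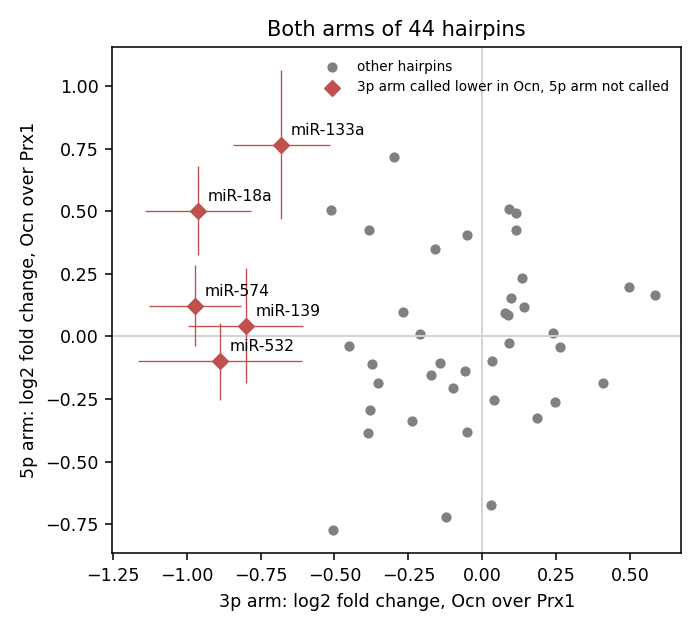
Log2 fold change for Ocn over Prx1 of the 3p arm (horizontal axis) and of the 5p arm (vertical axis) for 44 hairpins. Diamonds are the 5 hairpins whose 3p arm was called lower in Ocn and whose 5p arm was not, with bars of 1 SE. miR-139 sits at -0.80 and 0.04, among miR-574, miR-532, miR-18a and miR-133a at the left edge.

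The microRNAs whose levels moved most like each arm were sought within groups, by the Pearson correlation of log2 levels after each group was centred on its own mean over the 16 libraries. The highest of many correlations are high by selection, all points share their libraries and depths, and no test is given. For miR-139-5p they were miR-106b-5p (r = 0.93), miR-17-5p (0.86) and miR-18a-5p (0.79), which belong to the Mir17 cluster and its paralogs, a family known for promoting cell proliferation, then the erythroid miR-144-3p (0.67) and miR-151-5p (0.64). The median over the 233 other tested microRNAs was -0.07, and miR-139-3p itself came 177th at -0.27.

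miR-106b-5p ran from 42.9 to 232.4 CPM in Ocn, with a median of 159, and from 17.8 to 226 CPM in Prx1, with a median of 55.5. Within Prx1 it was highest in Prx1 4 (226 CPM) and Prx1 7 (206 CPM) and lowest in Prx1 6 (17.8 CPM, from 5 counts). These are also the highest and lowest Prx1 libraries of miR-139-5p. With 1186 counts of miR-106b-5p over all libraries, its low values rest on few counts. miR-17-5p ran from 473 to 916 CPM in Ocn and from 248 to 1465 CPM in Prx1, again with its highest level in Prx1 4. The likeness of miR-106b-5p did not rest on that library, with r = 0.93 without it, 0.97 in Ocn alone and 0.94 in Prx1 alone. miR-18a-5p (0.80) and miR-17-5p (0.80) came next without Prx1 4, whereas miR-144-3p dropped to 0.52 and miR-151-5p to 0.50. These 2 differed between the groups in sign: miR-144-3p had an r of -0.16 in Ocn and 0.90 in Prx1, and miR-151-5p had -0.75 in Ocn and 0.81 in Prx1, a difference that was not tested. At the other end of the order was miR-17-3p (r = -0.73), the opposite arm of miR-17, which is named here after its value was seen.

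**Figure D5:**
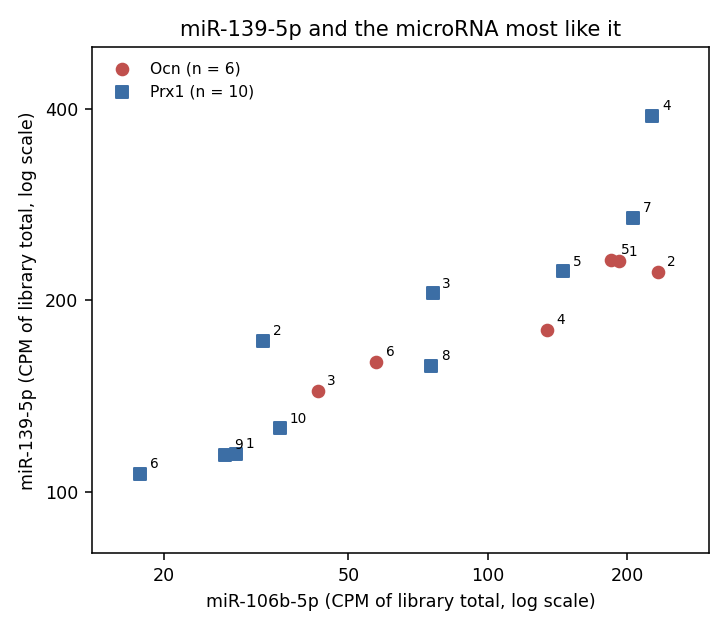
miR-139-5p (vertical axis) against miR-106b-5p (horizontal axis) in each library, both in CPM of the library total on log scales, with replicate numbers. Within each group, libraries with more miR-106b-5p tended to have more miR-139-5p. They ran from Prx1 6 at the lower left (17.8 CPM, from 5 counts, and 106.6 CPM) to Prx1 4 at the top (226 and 391 CPM).

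A feature of sequence was noticed after this order was seen. miR-139-5p holds the run ACAGUGCA at bases 4 to 11, partly in its seed, and the same 8 bases stand at bases 11 to 18 of miR-106b-5p and miR-17-5p, outside their seeds. In miR-17-5p the shared run is 9 bases long, and in miR-18a-5p 6 bases are shared. Capitals mark the run of each that is shared with miR-139-5p, and in miR-139-5p the 8 bases.
miR-139-5p: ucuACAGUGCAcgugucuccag
miR-106b-5p: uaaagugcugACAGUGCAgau
miR-17-5p: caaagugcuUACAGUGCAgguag
miR-18a-5p: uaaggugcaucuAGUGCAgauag

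These sequences come from RefSeq (GRCm38.p6), with miR-106b-5p on chromosome 5 (138165787 to 138165807, minus strand) and miR-17-5p and miR-18a-5p on chromosome 14 (from 115043684 and 115043867, plus strand). The run ACAGUGCA, searched on the RNA strand, is in 5 of 1679 mouse mature sequences (0.298%) and in 3 of the 203 other tested microRNAs with a sequence (1.48%). These 3 are miR-106b-5p, miR-17-5p and miR-106a-5p, the last with an r of 0.54 to miR-139-5p. The 3 microRNAs whose longest run shared with miR-139-5p is 8 bases had a median r of 0.54, and miR-17-5p, with 9, had 0.86. One of these 3, miR-148a-3p, shares a different run of 8 bases, at an r of -0.21. The 9 microRNAs that share 7 bases had a median r of -0.08. The 17 that share 6 bases had a median of -0.10, and miR-18a-5p was the highest of these, at 0.79. Whether a shared run goes with likeness was not tested.

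Other microRNAs, some of the same family, moved with miR-139-3p. Those most like it were let-7j (r = 0.81), miR-25-3p (0.79), miR-92a-3p (0.78), miR-744-5p (0.78) and miR-25-5p (0.75), against a median of 0.03 over the 233 others. In either group alone the lowest r among these 5 was 0.67, for miR-92a-3p in Ocn, and without Prx1 4 they ran from 0.70 for miR-92a-3p to 0.78 for miR-25-5p. let-7j, miR-25-3p, miR-92a-3p and miR-744-5p were lowest of the Prx1 libraries in Prx1 4, where miR-139-3p was also lowest among Prx1. miR-25-5p had a median of 149 CPM in Ocn, against 248 CPM in Prx1, and its highest Prx1 library was Prx1 1, as for miR-139-3p. The longest run that any of the 5 shares with miR-139-3p is 6 bases, in miR-25-5p. miR-25 and miR-106b come from the same host cluster, so the arms of miR-139 each had a member of it among the microRNAs most like them. miR-92a-3p is made from the Mir17 cluster, as are miR-17-5p and miR-18a-5p. Likeness to this wider family was therefore seen for both arms, though through different mature microRNAs.

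Other microRNAs reported to act on the best known targets of miR-139-5p were counted alongside. Of the 7 microRNAs listed for Igf1r, 6 were tested, and 1 was higher in Ocn and 0 lower, where 13.7% of all tested microRNAs passed in either direction. That one was miR-99a-5p, which also restrains mTOR signalling, with 1096 CPM in Ocn, against 780 CPM in Prx1 and a log2 fold change of 0.45 (SE 0.14, edgeR adjusted p = 0.0278). The most abundant member, the myeloid miR-223-3p, had 8184 CPM in Ocn, against 9613 CPM in Prx1 (log2 fold change -0.27, SE 0.14, edgeR adjusted p = 0.229). The median log2 fold change of the list was 0.08, against 0.01 over all tested. Of the 5 microRNAs listed for Notch1, 4 were tested and 0 passed in edgeR or DESeq2, with 0 at an unadjusted p under 0.05 and a median of 0.07. Its most abundant member, miR-146a-5p, which damps inflammatory signalling, had 5380 CPM in Ocn, against 5301 CPM in Prx1. Members below the low-count filter were miR-375-3p with 7 counts and miR-449a-5p with 35 counts over all libraries. The call of miR-99a-5p was lost with the depth term (edgeR adjusted p = 0.319), in the shared depth range (0.507), with thinning, and without any of 8 libraries.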

How the data were processed

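The authors deposited raw counts per mature microRNA, 1 column per library, without normalization. The unit was read from the values, and 0 columns were unused. Per the labels' protocols, libraries were made from 1 ng of RNA with the QIAseq miRNA kit. Per the submitters' processing notes, cutadapt 1.18 and the mm10 build were used. The aligner, the annotation and the use of molecular identifiers were not given in the sources used here. Intervals therefore cover counting error only. Reads of near-identical microRNAs may be shared, as between miR-99a and miR-100, or miR-106a and miR-17.

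Group differences came from edgeR 4.0.16 in R 4.3.3 (TMM, filterByExpr, robust quasi-likelihood test, group only), in which 234 entries were tested, of 973 with a count and 1915 in all. The SE is the log2 fold change divided by the root of F. Levels are CPM of library totals, while correlations used TMM-scaled CPM with 1 CPM added. Correlations used exact permutation for 6 libraries and 100000 resamples for 10. Arm ratios had 0.5 added to each count and were tested with limma 3.58.1. Named microRNAs followed a rule: both arms, the 5 most alike per arm, neighbours in rank, 5 hairpins with a 3p-only call, hairpins past the arm test, and called or most abundant list members. The planned sign-flip test within each group was replaced by that over both, since the 3p arm was picked on the group difference. The edgeR and limma steps were tested on simulated data. Folding used ViennaRNA 2.7.2. Alternatives were DESeq2 1.42.0, voom, other scalings, filters, thinning to 225273 counts, a depth covariate, a GC correction, a replicate block and each library left out. The members and lists were chosen with earlier results of these data known.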

Additional observations from a re-analysis of the deposited data

How the results depend on the processing

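The log2 fold change of miR-139-3p kept its sign under every alternative run, from -0.82 to -0.46, and from -0.86 to -0.66 with each library left out. That of miR-139-5p ran from 0.004 to 0.35, and from -0.03 to 0.21 with a library left out. The ratio difference ran from 0.80 to 1.11, and from 0.77 to 1.11 with a library left out. Against 14 higher and 18 lower calls, voom gave 24 higher, and upper quartile scaling, which moved the median log2 fold change from 0.01 to 0.13, gave 26 higher and 11 lower. The depth covariate and the shared depth range (3 against 2 libraries) each left 0 calls in edgeR, 0 higher and 0 lower, with 40 and 30 at an unadjusted p under 0.05. With a library left out, higher calls ran from 8 (without Prx1 2) to 20, and were 9 without Prx1 1 or Prx1 3. Hairpins past the arm test were 1 with at least 50 counts over both arms and 0 in the shared depth range, and 3 to 5 with a library left out, with 5 without Prx1 4 or Prx1 7. The Igf1r list had 0 to 1 calls with a library left out. Correlations within groups never passed, and with a library left out those of miR-139-3p with depth ran from -0.75 to 0.32 in Ocn and from -0.54 to 0.093 in Prx1. The cause of these changes was not tested, beyond the fewer libraries and hairpins in the restricted fits.

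Replicate numbers are shared by 6 pairs, whose deviations correlated at 0.02 to 0.20, not all over 0.1, and 1 of 6 Ocn libraries was closest to its own number. These 6 pairs are too few to tell whether equal numbers share more than the number. The replicate block gave 27 calls in place of 32, 2 calls in the Igf1r list and log2 fold changes of -0.78 for miR-139-3p and 0.004 for miR-139-5p. Numbers 7 to 10 occur only in Prx1, so in that fit the group difference rests on replicates 1 to 6 of each group. Counts of 30 to 356 per arm and library limit the precision of each value.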
